A study of Homo sapiens with 16 samples.

Results

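Ishikawa cells, a line from a human endometrial adenocarcinoma that carries estrogen receptor alpha, were compared after 2 h of 17β-estradiol (E2) and after vehicle. The comparison rests on 4 of the 16 libraries of the series: 2 vehicle-treated libraries, called 0 h, and 2 libraries collected after 2 h in 10 nM E2. All of them came from cells kept beforehand in medium without hormones, so the vehicle libraries are deprived cells and not cells in full medium. How long the vehicle was on the cells is not given in the sources used here, so the handling at the medium change and the hormone cannot be told apart. Ishikawa libraries of 4 h and 8 h of the same dose served to estimate the spread, and libraries of the breast cancer line T-47D under the same treatment gave a second cell line. The measurement was poly(A) RNA sequencing, and the deposited table holds read counts for 26364 gene symbols. Nothing in the labels says that the replicates came from separate cultures. The p-values therefore measure only the spread between replicate libraries, those of 4 h and 8 h included, which may be technical.

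Estrogen receptor alpha is a nuclear receptor that binds E2 and then sits on DNA, most tightly at a palindrome called the estrogen response element, or beside other factors such as AP-1. Genes that change within the first hours are mostly read as direct targets, since little new protein has been made by then, and falls at such an early time can be seen only in messages that decay quickly. In the endometrium estrogen drives growth of the epithelium and switches on the progesterone receptor, whose ligand later opposes that growth.

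The 4 libraries held 42153893 to 54267614 counts, and the 2 replicates of each time differed in more than sampling noise. The epithelial markers were all above 1 CPM (counts scaled to the size of each library), and of 8 Müllerian markers 6 were at 1 CPM or more in all 4 libraries, PAX8, EMX2, MSX1 and SOX17 among them, while PAX2 was at 0. Of 8 luminal breast markers 3 were at 1 CPM or more in all 4, TRPS1, PRLR and AZGP1, and SCGB2A2 and TFAP2B were at 0. Of 8 stromal markers COL1A1 and COL3A1 were at that level, and DCN and LUM were at 0. The vehicle replicates differed in base composition. The median log2 difference of replicate 1 from replicate 2 ran from 0.18 in the 10% of genes lowest in GC content to -0.12 in the highest 10%, and the median 2 h fold change followed, from 0.13 to -0.08. The 4 h and 8 h libraries went against their labels. Replicate 1 at 4 h differed from replicate 2 at 8 h by a median of 0.0767 on the log2 scale and from its own replicate by 0.0882, and replicate 2 at 4 h was nearest to replicate 1 at 8 h, at 0.0734. Levels after 2 h are therefore given below as the range over all 4 later libraries, without a test. The fit kept the labels of 4 h and 8 h. Its SE and p-values thus also hold gaps between later libraries of the same label, which may be differences of time.

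Of 15787 genes tested, 686 were called at an adjusted p under 0.05, which is 4.35% of those tested. Up were 412 genes (2.61%) and down 274 (1.74%). The rises were the larger changes: 114 rose by more than 1 on the log2 scale and 38 by more than 2, against 26 and 1 that fell as far. The median log2 fold change was 0.51 over the genes called up, -0.50 over those called down and -0.0023 over all genes tested. In every called gene both 2 h libraries lay beyond both vehicle libraries, which was also true of 49.4% of all genes tested. Without the first vehicle replicate 1735 genes were called, and without 1 of the other 3 libraries of 0 h and 2 h between 322 and 358.

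**Figure D1:**
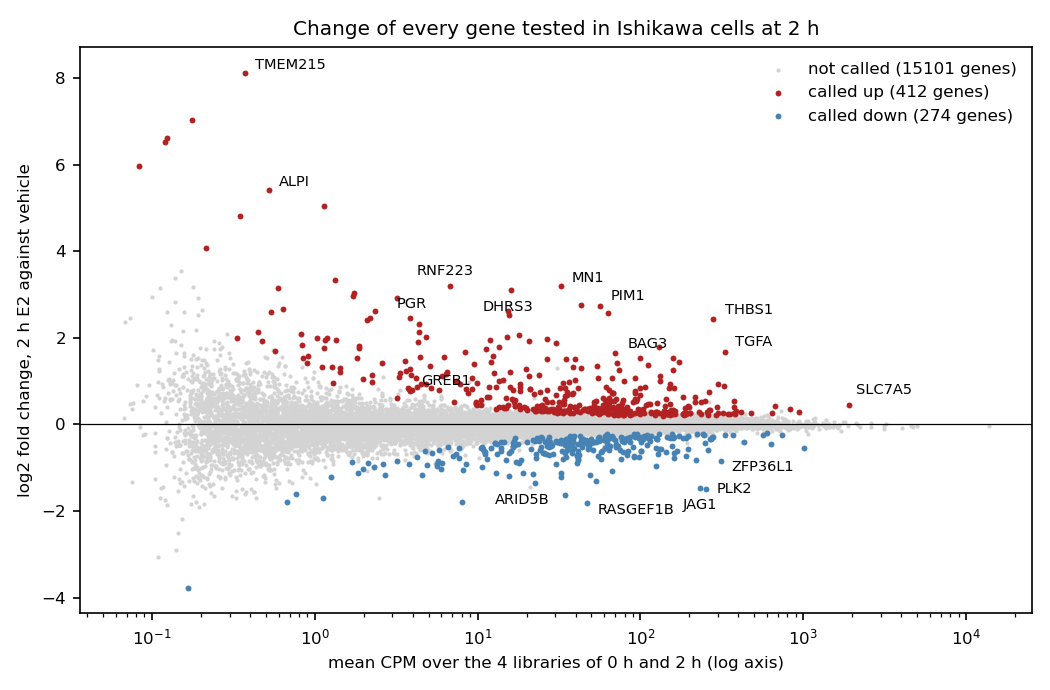
Each point is 1 gene tested in Ishikawa cells; the horizontal axis is its mean CPM over the 4 libraries of 0 h and 2 h on a log axis and the vertical axis the log2 fold change of 2 h E2 against vehicle. The 412 genes called up (red) reach farther from 0 than the 274 called down (blue); the genes at the top left had almost no reads at 0 h, so their fitted values are no measure of size.

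THBS1, or thrombospondin 1, a matrix protein that inhibits vessel growth, had the smallest p of all. It was at 85.7 and 86.3 CPM in the vehicle libraries and at 466 and 471 CPM at 2 h, a log2 fold change of 2.45 (SE 0.06, adjusted p = 7.1e-13). PIM1, a serine/threonine kinase that promotes survival, went from 15.1 and 14.6 CPM to 99.9 and 97.2 CPM (log2 2.73, SE 0.08). In both genes the replicates lay within a few percent of each other, and the groups were far apart.

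DHRS3, a reductase that turns retinaldehyde back into retinol, was at 3.19 and 3.52 CPM in vehicle and at 29.4 and 28.5 CPM at 2 h (log2 3.11, SE 0.10). MN1, a transcriptional coregulator, rose from 6.54 and 6.29 CPM to 59.0 and 58.0 CPM (log2 3.19, SE 0.12), and RNF223, a RING finger protein, from 1.28 and 1.37 CPM to 11.8 and 12.7 CPM (log2 3.21, SE 0.20). G0S2, an inhibitor of fat breakdown, rose from 10.5 and 11.7 CPM to 76.2 and 74.0 CPM (log2 2.76, SE 0.16). These 4 genes, like PIM1, gained more than 6-fold within 2 h.

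Others of the 15 largest rises with at least 100 counts on average were TNS4 (log2 2.63), a focal adhesion protein, NPPC (2.62), the precursor of C-type natriuretic peptide, FAM43A (2.57), MMP17 (2.53), a membrane-bound metalloproteinase, and FGF19 (2.47), a hormone-like growth factor. GPR132 (2.42) and CACNA1I (2.32), a G protein-coupled receptor and a T-type calcium channel subunit, closed the list. The cochaperone BAG3 rose from 80.5 and 83.1 CPM to 238 and 233 CPM (log2 1.53, SE 0.05), and HES2, a repressor of the hairy family, from 56.4 and 60.3 CPM to 200 and 202 CPM (log2 1.79, SE 0.07).

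Called genes with at most 3 counts in each vehicle library and at least 20 in each 2 h library were ALPI and TMEM215. Other called genes were as low in vehicle but stayed under 20 counts in a 2 h library. ALPI, intestinal alkaline phosphatase, had 0 and 2 counts in the vehicle libraries and 33 and 69 counts at 2 h, and TMEM215 had 0 and 0 against 33 and 39. Set against a floor of 3 counts per vehicle library, the level was at least 15.8-fold higher in ALPI and at least 11.5-fold higher in TMEM215. The call of TMEM215 was lost without the second vehicle replicate (adjusted p = 0.051). TFF1, a classical target in breast cells, had no count in any of the 8 Ishikawa libraries.

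**Figure D2:**
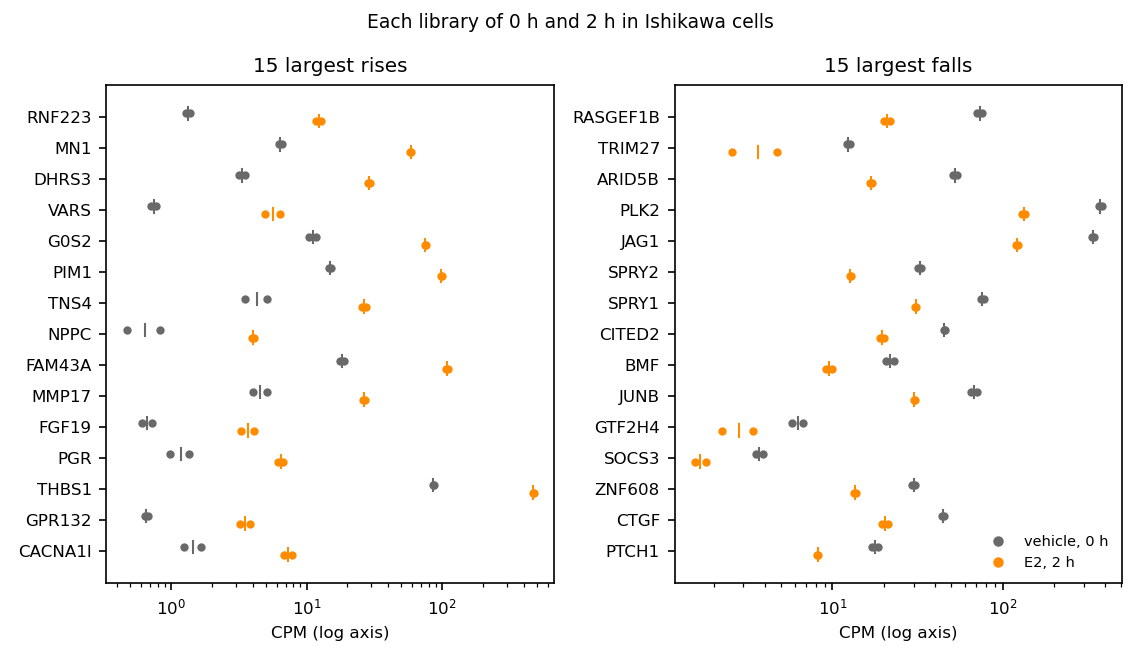
CPM (log axis) in each library of 0 h (grey) and 2 h (orange) for the 15 largest rises and the 15 largest falls among called genes with a mean of at least 100 counts; points are libraries and short lines the means of 2. THBS1 went from about 86 to 466 and 471 CPM, and RASGEF1B fell from 75.5 and 71.1 to 21.7 and 19.97 CPM.

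RASGEF1B, an exchange factor for small GTPases, was at 75.5 and 71.1 CPM in vehicle and at 21.7 and 19.97 CPM at 2 h, the largest fall among genes with at least 100 counts on average (log2 -1.82, SE 0.10, adjusted p = 9.87e-09). PLK2, a polo-like kinase, fell from 382 and 368 CPM to 136 and 131 CPM (log2 -1.49, SE 0.05). ARID5B, a chromatin regulator, fell from 53.7 and 51.0 CPM to 17.1 and 16.6 CPM (log2 -1.64, SE 0.13). The groups were far apart in all 3 genes.

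CITED2, a coregulator that competes for the coactivators CBP and p300, fell by 1.21 on the log2 scale, and ZNF608 by 1.14. PTCH1, the receptor of hedgehog ligands, fell by 1.12, and PLEKHG1, an exchange factor for small GTPases, by 1.08. SOCS3, a feedback inhibitor of cytokine receptors, was at 3.56 and 3.89 CPM in vehicle and at 1.79 and 1.55 CPM at 2 h (log2 -1.16, SE 0.22). That call was lost without the second replicate of 0 h or of 2 h (adjusted p = 0.068 and 0.088). CISH, another member of the same inhibitor family, went the other way, from 3.93 and 4.01 CPM to 8.22 and 9.58 CPM (log2 1.17, SE 0.13).

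Genes of the major histocompatibility region on chromosome 6 supplied 4 of the called genes among 80 tested there, VARS, KIFC1, TRIM27 and GTF2H4. Of all genes tested 4.35% were called, a share near that of this region. The hg19 assembly carries alternate copies of this region, and how reads were shared between copies is not given in the sources used here, so these 4 are uncertain. VARS, a valyl-tRNA synthetase, was at 0.782 and 0.708 CPM in vehicle and at 6.33 and 4.96 CPM at 2 h, but its 4 h replicates were at 7.34 and 0.775 CPM. TRIM27 was at 12.7 and 12.1 CPM in vehicle, 4.72 and 2.58 CPM at 2 h, and 13.05 and 2.25 CPM in the 4 h replicates. In both genes the gap between replicates at 4 h was as wide as the change at 2 h. TRIM27 lost its call without any 1 of the 4 libraries (adjusted p = 0.0626 to 0.393), VARS without either vehicle library (adjusted p = 0.0706 and 0.25) and KIFC1 without 3 of the 4 (adjusted p = 0.139 to 0.345).

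To show how the strongest form of the receptor's motif lies about these genes, exact matches to GGTCA and TGACC with any 3 bases between them, a palindrome that reads alike on both strands, were sought within 10000 bases of each gene's start in GRCh37, the build also called hg19. Such a match was found at 19 of 406 genes called up with a position (4.68%), at 9 of 112 that rose by more than 1 on the log2 scale (8.04%), at 3 of 270 called down (1.11%) and at 282 of 15247 tested (1.85%). This search was added after the calls were seen, and the shares are descriptions. The sites printed here are a selection from rises, known breast targets and the largest fall among genes that hold a match. Matches at some genes that rose more than CISH are not printed. The conserved letters are in capitals and the strand is that of the gene.

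RNF223: actcaggtGGTCAcagTGACCtgtgtcat
TNS4: atgaatggGGTCAcccTGACCtggatgta
FGF19: gaattagcGGTCAgggTGACCagatgtgg
CISH: ttcctccaGGTCAccaTGACCcagccagg
NRIP1: gggcgtggGGTCAaagTGACCcagagttc
SIAH2: ttttcacaGGTCAccaTGACCtggaacta
BMF: gagtgcaaGGTCActcTGACCagctcaga

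The RNF223 site is at chr1:1009190-1009218, in an intron 482 bases after the start, and the NRIP1 site at chr21:16437954-16437982, also in an intron, 289 bases after it. The SIAH2 site, at chr3:150474423-150474451, is in an intron as well. The TNS4 site, at chr17:38663802-38663830, lies before the start, at -5941 bases, and the BMF site, at chr15:40403076-40403104, likewise at -1997 bases. The FGF19 site at chr11:69512159-69512187 and the CISH site at chr3:50642689-50642717 lie past the ends of their genes. Besides BMF, the falling genes with a match were BCL9 and RBMS2. In the 300 bases about the start (RefSeq promoters of GRCh38.p14, 250 before and 50 after), none of the 323 rising and 209 falling genes with a sequence held the palindrome, against 3 of 12044 tested genes. One arm of it, AGGTCA, searched on both strands, was held by 11.5% of the rising and 9.09% of the falling genes, by 15.7% of the 83 that rose by more than 1 on the log2 scale, by 10.4% of tested genes and by 14.2% of all RefSeq promoters. The AP-1 letters TGANTCA were held by 4.64% of the rising, 6.22% of the falling and 8.43% of those 83 genes, against 4.99% of tested genes and 7.98% of all promoters.

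Of 31 classical estrogen targets of breast cancer cells that were tested, 14 rose and none fell (1 fell at an unadjusted p under 0.05 by edgeR, and none by DESeq2), with a median log2 fold change of 0.57 over the list. Of all genes tested 2.61% rose and 1.74% fell. PGR, the progesterone receptor, went from 1.37 and 0.988 CPM to 6.73 and 6.20 CPM (log2 2.45, SE 0.19), and CA12, a carbonic anhydrase, from 4.95 and 4.85 CPM to 18.4 and 19.3 CPM (log2 1.94, SE 0.13). GREB1, a cofactor of the receptor, moved less, from 8.64 and 9.42 CPM to 13.5 and 14.4 CPM (log2 0.63, SE 0.12, adjusted p = 0.00511), and without the second 2 h replicate its adjusted p was 0.0654. CCND1, cyclin D1, rose from 565 and 579 CPM to 759 and 783 CPM (log2 0.43, SE 0.05). XBP1 (log2 0.23, adjusted p = 0.0521 by edgeR and 0.0167 by DESeq2) and CTSD (log2 -0.04, adjusted p = 0.754), both known as targets in breast cells, did not pass the test. In T-47D at 2 h XBP1 rose by 1.27 on the log2 scale, but CTSD did not pass the test there either (log2 0.15, adjusted p = 0.0808 by edgeR).

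Of 24 coactivators and corepressors of the receptor tested, 6 rose and 1 fell, where 4.35% of all genes tested were called. NRIP1, or RIP140, a corepressor that E2-bound receptor recruits, rose from 46.0 and 40.96 CPM to 90.9 and 91.1 CPM (log2 1.07, SE 0.07). The coactivator NCOA4 rose by 0.75 on the log2 scale, and the corepressor TLE3 by 0.73. PPARGC1A, a coactivator of mitochondrial genes, fell by 0.94, and without the first 2 h replicate its adjusted p was 0.0626. The list's median log2 fold change was 0.01, near that of all genes.

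Of 21 nuclear receptors tested, 3 rose and 1 fell, beside 2.61% and 1.74% of all genes tested. VDR, the vitamin D receptor, rose from 18.1 and 18.2 CPM to 52.8 and 50.8 CPM (log2 1.51, SE 0.13). NR2F6, an orphan receptor, rose by 0.44 on the log2 scale. ESR1 itself was at 247 and 234 CPM in vehicle and at 205 and 207 CPM at 2 h (log2 -0.23, SE 0.06, adjusted p = 0.0298). That small fall was lost without the first vehicle replicate (adjusted p = 0.062) or either 2 h library (adjusted p = 0.296 and 0.28), and with the replicate number as a block (adjusted p = 0.0514). ESR2 stayed under 1 CPM in each of the 4 libraries. Among 18 genes of retinoid receptors and metabolism 2 rose and 1 fell: beside DHRS3, RARA, retinoic acid receptor alpha, went from 23.8 and 28.7 CPM to 53.5 and 53.0 CPM (log2 1.02, SE 0.09).

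Immediate-early genes, which serum or growth factors switch on within minutes without new protein, moved in both directions. Of 22 such transcription factors tested, 5 fell and 2 rose, and of 25 other immediate-early genes 9 fell and 5 rose, beside 1.74% of all genes tested that fell and 2.61% that rose. JUNB, an AP-1 subunit, was at 65.6 and 71.1 CPM in vehicle and at 30.1 and 30.5 CPM at 2 h (log2 -1.17, SE 0.09). JUN fell by 0.80 on the log2 scale, ATF3 by 0.88 and KLF6 by 0.47. EGR1, the classical sensor of MAPK activity, fell from 22.5 and 24.1 CPM to 11.996 and 12.97 CPM (log2 -0.90, SE 0.11). The other direction was taken by JUND (log2 0.35) and KLF4 (0.76). Without the first or the second 2 h replicate JUND had an adjusted p of 0.117 and 0.0526, and KLF4 was lost without the second replicate of 0 h or of 2 h (adjusted p = 0.115 and 0.159).

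Among the other immediate-early genes, CTGF, a matrix protein and target of YAP, fell from 45.5 and 44.2 CPM to 19.7 and 21.2 CPM (log2 -1.13, SE 0.08). ZFP36L1, which speeds decay of AU-rich messages, fell by 0.84, IER2 by 0.73 and BTG2, an antiproliferative protein, by 0.59. Those that rose with PIM1 included IER5L (log2 1.13) and IER5 (0.84). JUNB and CTGF overlap genes of the opposite strand, as do THBS1, CISH, GREB1, RARA, CCND1, CCND2, TOB1, CEBPB, TGFB2, SOX9, BBC3, BCL2L1, GNL3, PEG10, MYC and ESR1, and whether counting used the strand is not given in the sources used here. MYC, which rose by 2.51 on the log2 scale in T-47D, had a log2 fold change of 0.15 (SE 0.06, adjusted p = 0.216) in Ishikawa cells, at 116 and 120 CPM in vehicle and 131 CPM in both 2 h libraries.

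Of 14 feedback inhibitors of the MAPK pathway tested, genes that the pathway itself induces, 4 fell and none rose (1 rose at an unadjusted p under 0.05 by edgeR, and none by DESeq2). Beside them, 1.74% of all genes tested fell and 2.61% rose. T-47D cells had 5 of the 14 called down at 2 h and none up. SPRY2 fell from 32.0 and 33.2 CPM to 12.6 and 12.8 CPM (log2 -1.36, SE 0.12), SPRY1 from 77.4 and 74.6 CPM to 30.7 and 31.0 CPM (log2 -1.30, SE 0.07), and DUSP6, a phosphatase of ERK, from 50.5 and 55.1 CPM to 27.6 and 29.0 CPM (log2 -0.90, SE 0.11). SPRY4 (log2 -0.43) lost its call without the second vehicle replicate or either 2 h library (adjusted p = 0.159 to 0.455). At the same time the ligand TGFA, which activates the EGF receptor, rose from 158 and 159 CPM to 510 and 496 CPM (log2 1.67, SE 0.06). Of 7 EGF-family ligands tested TGFA alone rose, and NRG1, a ligand of ERBB3, fell by 0.70 (adjusted p = 0.0743 without the second vehicle replicate). Of 26 regulators of RAS and RAP, 3 rose and 3 fell; the exchange factors RASGRP1 (log2 1.12) and RAPGEFL1 (1.27) rose and RASGEF1B fell.

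Notch signalling, in which JAG1 on one cell activates NOTCH1 on the next and HES1 and NRARP are induced, had 5 of 25 tested members down and 3 up. Over all genes tested, 1.74% were down and 2.61% up. JAG1 was at 336 and 343 CPM in vehicle and at 121 and 123 CPM at 2 h (log2 -1.48, SE 0.06, adjusted p = 2.78e-10). NOTCH1 fell by 0.61 on the log2 scale, HES1 by 0.81 and NRARP by 0.62. HES2, LFNG (log2 0.59) and MFNG (1.77) rose. The fringe enzymes LFNG and MFNG add sugars to Notch receptors, and MFNG lay at 0.586 and 1.12 CPM in vehicle and at 2.27 and 3.51 CPM at 2 h. Its adjusted p was 0.0795 without the second 2 h replicate.

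In TGF-beta and BMP signalling 6 of 41 tested members fell and 4 rose, beside 1.74% and 2.61% of all genes tested. ID1, a target of BMP signals that blocks bHLH factors, fell from 288 and 271 CPM to 157 and 158 CPM (log2 -0.83, SE 0.06). ID3 fell by 0.71 on the log2 scale and the ligand TGFB2 by 0.56, whereas SKIL, or SnoN, a repressor of SMAD proteins, rose by 0.94. INHBB, also called, rose by more than SKIL. Of 40 WNT genes 3 rose and 3 fell, among them the receptor FZD5, from 89.9 and 85.5 CPM to 178 and 175 CPM (log2 1.01, SE 0.06), and the ligand WNT7A, which the uterine epithelium makes (log2 -0.75).

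Alkaline phosphatase has long served as the readout of estrogen action in Ishikawa cells. Of the 4 genes of the family, 3 rose, where 2.61% of all genes tested rose. ALPP, the placental form, was at 0.499 and 0.258 CPM in vehicle and at 3.40 and 2.85 CPM at 2 h (log2 3.03, SE 0.42), and ALPPL2, the germ cell form, at 1.87 and 1.76 against 6.64 and 6.91 CPM (log2 1.90, SE 0.34). ALPPL2 lost its call without the second vehicle replicate (adjusted p = 0.121). The tissue-nonspecific ALPL did not pass the test (log2 0.16, adjusted p = 0.695). ALPP, ALPPL2 and ALPI are close copies on chromosome 2, and counting may have split their reads, so their separate values are uncertain.

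Among 19 genes known from the uterine epithelium's response to estrogen and progesterone, 2 rose and 2 fell. Over all genes tested, 2.61% rose and 1.74% fell. KLF9, a partner of the progesterone receptor, rose from 4.02 and 3.82 CPM to 9.09 and 9.02 CPM (log2 1.21, SE 0.16), and FGF18 fell by 0.81 on the log2 scale. Of 15 factors of epithelial lineage 4 rose and 4 fell. ELF3, an epithelial ETS factor, rose from 94.7 and 92.5 CPM to 228 and 220 CPM (log2 1.26, SE 0.10), and TFAP2C (log2 0.94) rose too, though not without the second vehicle or the first 2 h replicate (adjusted p = 0.136 and 0.0671). KLF5 fell by 0.62 and SOX9 by 0.48.

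No gene of the DNA replication and mitotic lists was called at 2 h by edgeR. Of 37 DNA replication genes 1 had an unadjusted p under 0.05 by edgeR, of 29 mitotic genes 3, and DESeq2 called none of either. The median log2 fold changes were -0.04 and 0.0019. MCM4 (log2 -0.0032), MKI67 (-0.06) and TOP2A (0.15, adjusted p = 0.32, or 0.0216 without the first vehicle replicate) were at high levels in all 4 libraries. Earlier in the cycle, 2 of 24 regulators of the G1 phase rose and 2 fell, with CCND2 (log2 0.74) beside CCND1. Of 29 CDK inhibitors and antiproliferative genes 6 fell and 2 rose, beside 1.74% and 2.61% of all genes tested. CCNG2, a cyclin of arrested cells that estrogen lowers in breast cells, fell by 0.61, and TOB1, also antiproliferative, rose from 36.1 and 31.4 CPM to 105 and 108 CPM (log2 1.66, SE 0.09).

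The BCL2 family had 3 of 18 members down and 1 up, against 1.74% and 2.61% of all genes tested. BMF, which triggers death when cells detach, fell from 22.9 and 20.8 CPM to 9.16 and 9.88 CPM (log2 -1.20, SE 0.13). BBC3, or PUMA, fell by 0.92 and BCL2L1, whose main form protects from death, by 0.32, while PMAIP1, or NOXA, rose by 0.56. BBC3 and BCL2L1 lost their calls without the second vehicle replicate (adjusted p = 0.0624 and 0.104) or the first 2 h replicate (adjusted p = 0.0546 and 0.093), and BCL2L1 also without the second (adjusted p = 0.19).

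Few genes of growth functions were called. Of 49 genes of ribosome biogenesis 3 rose, RRS1 (log2 0.29), POLR1B (0.31) and GNL3 (0.21), a share of 6.12% against 2.61% of all genes. All 3 were lost without the second 2 h replicate (adjusted p = 0.117 to 0.404), and GNL3 also with a correction for GC content (adjusted p = 0.162). Of the 49 ribosome biogenesis genes, 28 lay higher in both 2 h libraries than in both vehicle libraries and 3 lay lower. Their median log2 fold change was 0.07. Over all genes tested, 49.4% lay apart in either direction. T-47D cells had 16 of the 49 called up at 2 h, where 3.68% of all genes tested were up. No member was called by edgeR among 52 ribosomal proteins, 24 genes of the unfolded protein response and 25 interferon-stimulated genes, in which 0, 4 and 5 had an unadjusted p under 0.05 and DESeq2 called 0, 1 and 0. Of 35 ATF4 targets and genes of amino acid supply 2 rose and 1 fell: the amino acid carrier SLC7A5 (log2 0.45), the transcription factor CEBPB (0.87) and the mTOR inhibitor DDIT4 (-0.46). IL1RN, which the study uses elsewhere, did not pass the test (log2 -0.27, adjusted p = 0.797). PEG10, an imprinted gene, was at 661 and 641 CPM in vehicle and at 811 and 799 CPM at 2 h (log2 0.31, adjusted p = 0.335). Fitted without the later libraries, which stood at 1093 to 1645 CPM, its adjusted p was 0.000493.

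**Figure D3:**
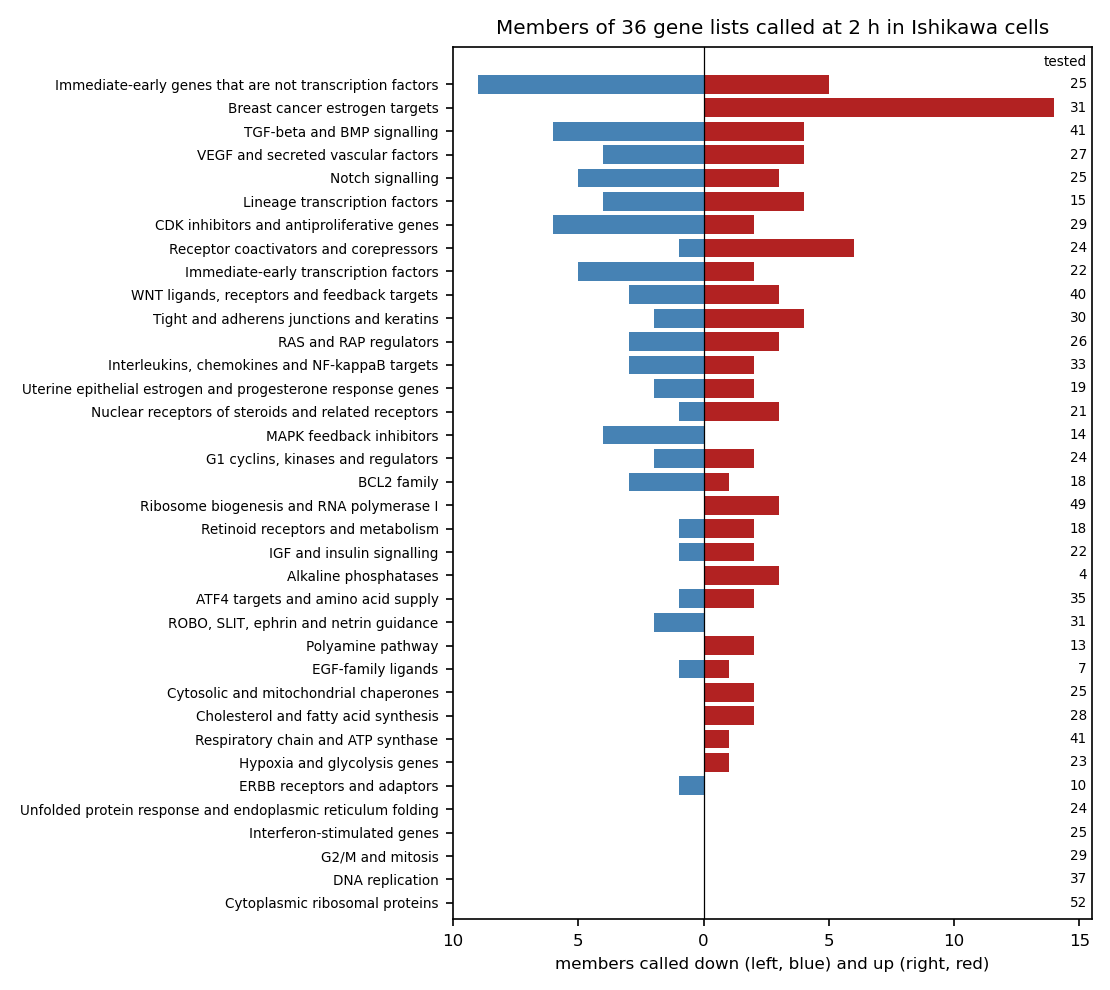
Members of each of 36 gene lists called down (blue, to the left) and up (red, to the right) at 2 h against vehicle in Ishikawa cells, with the number tested at the right edge. Breast cancer estrogen targets have 14 members up and none down, MAPK feedback inhibitors 4 down and none up, and DNA replication, mitotic and ribosomal protein genes none in either direction. Over all genes tested, 2.61% were called up and 1.74% down.

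Set beside the later libraries, the early genes took several courses. THBS1 went on from 466 and 471 CPM at 2 h to 657 to 715 CPM over the 4 later libraries, PGR from 6.20 and 6.73 CPM to 13.5 to 18.4 CPM, DHRS3 to 53.5 to 59.7 CPM and ALPP to 5.87 to 12.1 CPM. BMF went on down, to 4.25 to 5.86 CPM. In these genes no later library overlapped the 2 h libraries.

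Others stood highest at 2 h. FAM43A was at 110 and 107 CPM at 2 h and at 46.6 to 60.8 CPM later, ELF3 at 228 and 220 CPM and then 114 to 145 CPM, and TOB1 at 105 and 108 CPM and then 51.3 to 60.4 CPM. KLF9 was at 9.09 and 9.02 CPM at 2 h and at 3.92 to 5.603 CPM later, a range that began within its vehicle levels.

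Some falls were gone or smaller in the later libraries. DUSP6 was at 27.6 and 29.0 CPM at 2 h and at 45.0 to 58.2 CPM later, a range that held both vehicle values. EGR1 was at 30.3 to 37.9 CPM later, above its vehicle libraries, and SPRY2 at 20.7 to 27.4 CPM, still below them. PIM1, by contrast, was level, with 94.2 to 106 CPM later.

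**Figure D4:**
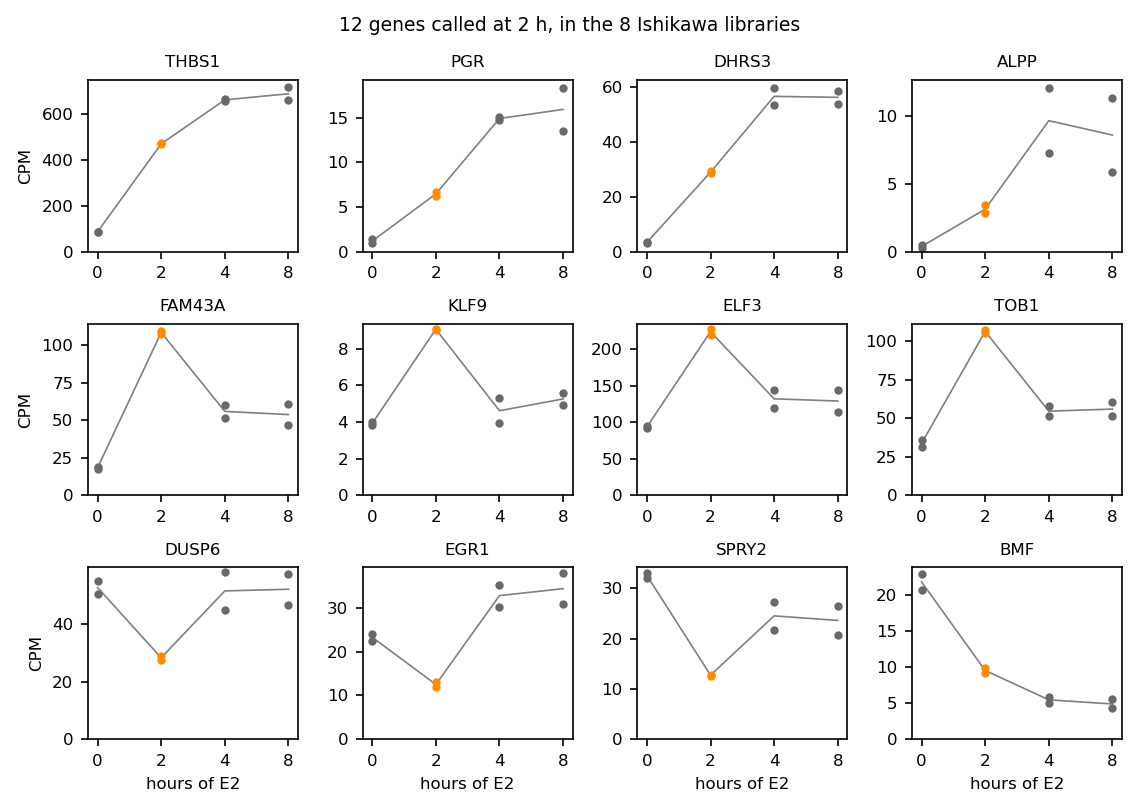
CPM of 12 genes called at 2 h in the 8 Ishikawa libraries, with the hours of E2 on the horizontal axis (0 is vehicle); points are libraries, orange at 2 h, and lines join the means of 2. THBS1, PGR, DHRS3 and ALPP are higher still in the later libraries, FAM43A, KLF9, ELF3 and TOB1 are highest at 2 h, and the falls of DUSP6 and EGR1 are gone later.

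T-47D cells shared a part of this first response. Of the 412 genes up in Ishikawa cells, 128 were called up and 16 down in T-47D at 2 h, where 3.68% of the same 15787 genes were up and 2.62% down, and of the 274 down, 85 were called down and 10 up. The difference between the lines was itself called for 196 of the 686 genes (28.6%), against 2.67% of 17090 genes tested for it. Among these were 139 rises, of which 127 were lower in T-47D, and 57 falls, of which 56 were higher in T-47D. Since the 686 genes were chosen in Ishikawa cells, a smaller value in the other line is partly fixed by that choice.

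ZNF608 and CISH had log2 fold changes of -1.22 and 1.25 in T-47D, near those of Ishikawa cells (differences -0.08, SE 0.13, and 0.09, SE 0.18). THBS1 and TGFA rose in both and by less in T-47D (log2 1.81 and 1.28). The rises of MN1, FAM43A, HES2 and VDR stood against log2 fold changes of 0.13, -0.10, -0.12 and -0.08 in T-47D, none of which passed the test there. RASGRP1, GREB1 and SIAH2 rose more in T-47D, by 3.86, 1.78 and 1.13 on the log2 scale. SPRY2 did not pass the test there (log2 0.13), and ATF3 rose by 0.38.

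**Figure D5:**
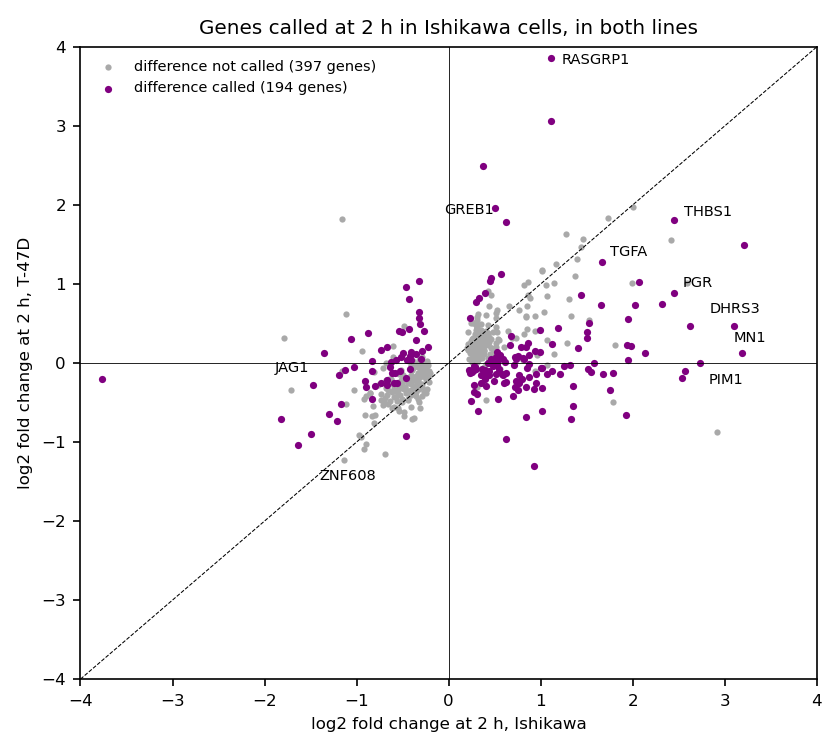
Log2 fold change at 2 h in Ishikawa cells (horizontal) and in T-47D cells (vertical) of the genes called in Ishikawa cells with at least 1 CPM in a T-47D library of 0 h or 2 h; purple marks the 194 whose difference between the lines was called and grey the other 397, and 3 genes lie outside the axes. Rises such as MN1 and PIM1 lie near the line of no change in T-47D, and RASGRP1 and GREB1 above the dashed line of equal change.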

How the data were processed

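Ishikawa cells were grown in hormone-free medium (the labels and the methods give different lengths for this step) and treated with vehicle or 10 nM E2. Libraries were directional poly(A) libraries. Raw counts per gene were deposited by the authors, made with HISAT2 on hg19, SAMtools and featureCounts on UCSC Known Genes. Versions, the strand setting and the handling of mates and of reads that match several places are not given in the sources used here. Of the counts from 1 to 10, 71.9% to 73.9% were even, and counts divided by 2 were tried as an alternative.

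From the counts, CPM were computed with TMM scaling. Genes kept by filterByExpr were tested in edgeR 4.0.16 (R 4.3.3) with the quasi-likelihood F-test over the 8 Ishikawa libraries, with time point as a factor of 4 levels and no block, as the contrast of 2 h and 0 h, with Benjamini-Hochberg adjustment over all genes. Log2 fold changes carry an SE of the log2 fold change over the root of F. The difference between cell lines was an interaction in 1 fit of all 16 libraries. DESeq2 1.42.0 was an alternative. The test was run on simulated counts first.

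Named genes were the 15 largest rises and falls with at least 100 counts on average, the 8 smallest p in each direction, up to 6 called and 3 uncalled members of each list, genes the study edited or used as markers, both estrogen receptors, and genes with at most 3 counts in each library of one time and at least 20 in each of the other. KIFC1, JUND, IER2, SIAH2, LFNG, BCL9 and RBMS2 fall outside this rule and were chosen after their values were seen. Members and lists were chosen with earlier results of these data known, so lists are described by counts and medians and not tested. Gene positions came from GENCODE v44 on GRCh37, in which 90.4% of symbols had a match. The replicate numbers did not pair the samples (correlations of deviations -0.115 to 0.0533). A few items are not reported here.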

Additional observations from a re-analysis of the deposited data

Results flagged for a closer look

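From 107 genes named in the report, those with at least 1 CPM in a T-47D library were examined. By edgeR's test of the difference, 51 of them changed differently at 2 h in the 2 cell lines, with adjusted p up to 0.0439. Over all 17090 genes tested for it, the difference was called for 2.67%. Many of the named genes were chosen by their change in Ishikawa cells, so a smaller change in T-47D is partly fixed by that choice. The difference is the log2 fold change in T-47D minus that in Ishikawa cells.

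Of these, 29 were lower in T-47D. The largest differences were those of MN1 (-3.05), PIM1 (-2.72), MMP17 (-2.71), FAM43A (-2.66), DHRS3 (-2.63) and TNS4 (-2.15). HES2 (-1.90), RNF223 (-1.70), VDR (-1.58), PGR (-1.56), CACNA1I (-1.56), CA12 (-1.38), KLF9 (-1.34), FZD5 (-1.32) and ELF3 (-1.29) followed. Smaller differences were those of IER5L (-1.22), IER5 (-1.14), BAG3 (-1.01), KLF4 (-1.01), TLE3 (-0.95), TOB1 (-0.92), SKIL (-0.78), CEBPB (-0.76) and NCOA4 (-0.65). THBS1 (-0.63), LFNG (-0.54), NR2F6 (-0.53), DDIT4 (-0.45) and TGFA (-0.38) closed the list, and of these DDIT4 fell in both lines.

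The other 22 were higher in T-47D. Genes that rose more there than in Ishikawa cells were RASGRP1 (2.76), MYC (2.37), GREB1 (1.17), XBP1 (1.05), SLC7A5 (0.60), SIAH2 (0.57) and RRS1 (0.49). Genes that fell in Ishikawa cells and fell less, did not pass the test or rose in T-47D were SPRY2 (1.49), ATF3 (1.27), JAG1 (1.21), RASGEF1B (1.12), BMF (1.06), PTCH1 (1.04), SPRY1 (0.67), JUNB (0.66), ARID5B (0.61), PLK2 (0.60), JUN (0.52), NOTCH1 (0.49), CITED2 (0.48), ESR1 (0.44) and ZFP36L1 (0.39).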

How the results depend on the processing

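The 686 calls (412 up, 274 down) were recomputed under other settings. Without a filter on low counts 1162 genes were called (640 up, 522 down), at an adjusted p of 0.01 392 (234 and 158), and at 0.1 634 rose. Leaving out 1 library gave 322 to 1735 calls, 201 to 1158 of them up and 121 to 577 down; the highest came without the first vehicle replicate and the lowest without the second 2 h replicate, and a lone library was assumed to vary like the other groups. With the replicate number as a block 606 genes were called (356 up, 250 down), 598 of them among the 686. Leaving out all later libraries gave 666 calls, 586 shared, and DESeq2 817, 654 shared. A correction for each library's trend on GC content, added after the data were seen, gave 721 calls, 585 shared, and 639 with the block. All of the 686 genes that were tested kept their direction in each of these settings. The count of 196 genes that differed between the lines ranged from 152 to 232. Of 97 named genes called and put to this check, 77 were called under every alternative tried for them, and none of the 97 changed direction under any. Changes of the threshold and of the filter on low counts were not tried for single genes. Among the named genes the block ended the calls of ESR1 (adjusted p = 0.0514) and GNL3 (adjusted p = 0.0749) and no other. With 2 libraries a time, no gene that changed by less than 0.20 on the log2 scale was called.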

Other observations

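Other gene lists held few called members at 2 h. Of 27 vascular factors 4 rose, THBS1 among them, and 4 fell, and of 33 interleukins, chemokines and NF-kappaB targets 2 rose and 3 fell. Of 30 junction and keratin genes 4 rose and 2 fell, and of 22 genes of IGF and insulin signalling 2 rose and 1 fell. Of 25 chaperones 2 rose, BAG3 among them, as did 2 of 13 polyamine genes and 2 of 28 genes of cholesterol and fatty acid synthesis, with none down by edgeR; in each of these 3 lists 1 gene was down at an unadjusted p under 0.05, and DESeq2 called 0, 1 and 1 down. Of 31 guidance genes 2 fell, of 10 ERBB receptors and adaptors 1 fell, and 1 gene rose in each of the lists of hypoxia (23 tested) and the respiratory chain (41 tested). Of all genes tested 2.61% were called up and 1.74% down.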
